A study of Mus musculus with 12 samples.

Results

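Interferon-response genes are genes whose transcription rises when a cell is exposed to interferon. Here 9 of them were followed in cardiac Purkinje cells (PCs), the fast-conducting cells of the ventricular conduction system, and in ventricular myocytes (VMs) of *Ncam-1* WT and *Ncam-1* KO mice. The 9 genes, of 48526 genes listed in the count tables, were chosen by name: *Ifitm3*, *Ifitm2*, *Ifit1*, *Ifit3*, *Isg15*, *Irf7*, *Bst2*, *B2m* and *F830016B08Rik*. *Ifitm3* and *F830016B08Rik* were selected on their difference between genotypes in these same libraries, so their genotype values are given as a description, without a test. The other 7 were taken for their place in the interferon response.

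The study asked how loss of NCAM-1, a neural cell adhesion molecule, alters transcription in the conduction system. RNA-seq was made from 12 libraries in 4 groups of 3: WT PC, KO PC, WT VM and KO VM. All came from adult mice that carried the *Cntn2*-EGFP reporter, a bacterial artificial chromosome transgene that makes PCs green, and all cells were sorted after staining with TMRM, a mitochondrial dye that marks cardiomyocytes. GFP+ cells were taken as PCs and GFP- cells as VMs. The WT and KO groups differ by *Ncam-1*-/-, a deletion present in every cell of the animal. The knockout was kept on C57BL/6 and the reporter on CD1, so the crossed animals are of mixed background, and whether WT and KO animals were littermates, or whether a PC and a VM library came from one heart, is not given in the sources used here. *Ncam1* itself had 34 to 116 counts in the WT PC libraries and 0 to 1 in the KO PC libraries, against 0 to 9 in WT VMs and 0 in all KO VMs.

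Interferons are secreted proteins. Type I interferons signal through IFNAR1 and IFNAR2 and the kinases JAK1 and TYK2 to a transcription factor complex that includes IRF9 and binds an interferon-stimulated response element (ISRE) in the promoters of its targets. Interferon gamma signals through IFNGR1 and IFNGR2, and the factors it activates bind a gamma-activated site (GAS). Many of the products restrict viruses or present viral peptides, and many of the genes are kept at a low basal level without infection.

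The members' promoters are shown first because the shared ISRE is what ties most of these genes together. The promoter table from RefSeq on GRCm38.p6 (250 bases before to 50 bases after each transcript start) held 8 of the 9 members, all but *F830016B08Rik*. The motif GAAANNGAAA, searched on both strands, was found in 7 of these 8 promoters, *Irf7* being the exception, and in 3.44% of all 32851 promoters of the table. Each sequence below runs 5′ to 3′ on the strand of its gene, and capitals mark the match, which reads TTTCNNTTTC where it lies on the other strand.
*Ifitm3*, first 30 transcribed bases, chr7:141010715-141010744, minus strand: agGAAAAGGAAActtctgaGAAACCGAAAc
*Ifitm2*, chr7:140955988-140956037, minus strand: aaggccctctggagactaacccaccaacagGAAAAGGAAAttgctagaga
*Ifit1*, chr19:34640755-34640843, plus strand: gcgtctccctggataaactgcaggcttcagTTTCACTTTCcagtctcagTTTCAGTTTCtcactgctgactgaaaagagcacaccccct
*Ifit3*, chr19:34583343-34583446, plus strand: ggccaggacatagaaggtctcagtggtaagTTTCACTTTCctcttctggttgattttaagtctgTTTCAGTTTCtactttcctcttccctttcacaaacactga
*Isg15*, chr4:156200845-156200926, minus strand: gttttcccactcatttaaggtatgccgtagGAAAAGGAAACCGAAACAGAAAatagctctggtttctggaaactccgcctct
*Bst2*, chr8:71537557-71537632, minus strand: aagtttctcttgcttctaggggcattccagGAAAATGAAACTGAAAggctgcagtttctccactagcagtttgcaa
*B2m*, chr2:122147518-122147587, plus strand: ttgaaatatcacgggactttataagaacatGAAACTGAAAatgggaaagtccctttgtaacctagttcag

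*Isg15* carried 3 overlapping matches, *Bst2* 2 overlapping ones, *Ifitm3*, *Ifit1* and *Ifit3* 2 separate ones, and *Ifitm2* and *B2m* 1 each. In *Ifitm2*, *Ifit1*, *Ifit3*, *Isg15*, *Bst2* and *B2m* they lay 37 to 156 bases upstream of the RefSeq start. In *Ifitm3* they lay within the first 30 bases of the RefSeq transcript. A GAS motif, TTCNNNGAA, was present in *Ifitm3* and *Bst2*, and in 8.30% of all promoters. Both GAS matches overlapped an ISRE match. A match is a run of letters, and no binding was measured here.

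**Figure D1:**
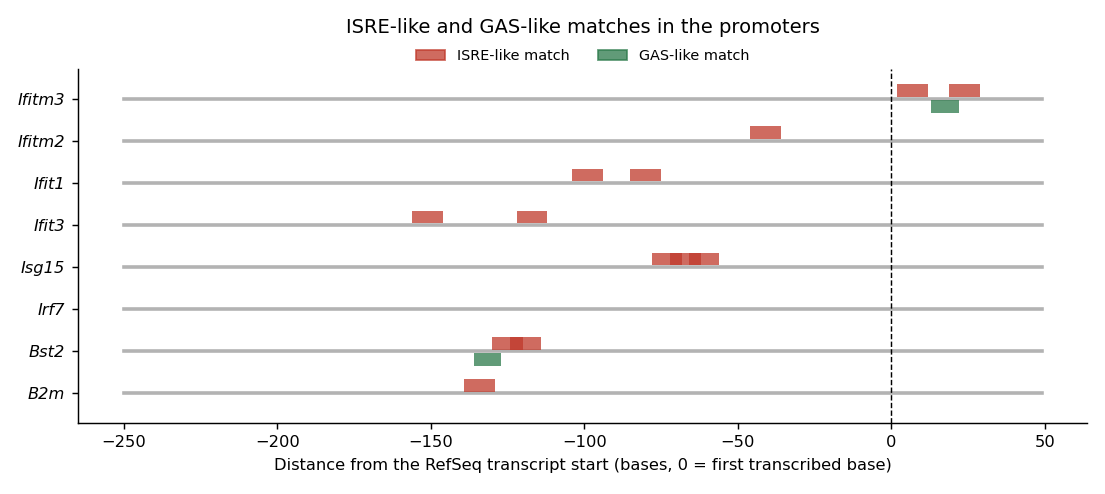
Positions of ISRE-like (red, above the line) and GAS-like (green, below the line) matches in the promoters of the 8 members with a RefSeq promoter, as distance in bases from the transcript start (dashed line). Matches lie upstream of the start in 6 genes, at the start of the transcript in *Ifitm3*, and *Irf7* has none.

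One library stood apart before any gene was compared. WT PC replicate 2 had 63.9% of its read pairs unaligned and counts in only 11847 genes, and its median Spearman correlation with the other libraries was 0.828, against 0.872 to 0.890 for the other 11. Counts outside the mitochondrial genome ranged from 1532393, in that library, to 6761356, and mitochondrial transcripts made up 79.0% to 91.3% of counts on genes. The summed normalized count of the 10 cardiomyocyte markers overlapped between PCs and VMs in both genotypes. *Ttn* was the largest part of that sum, and the overlap of single markers was not examined. Of the 10 Purkinje markers, 7 of 10 tested passed with a higher level in WT PCs and 5 of 9 in KO PCs. *Cntn2*, the gene of the reporter, had mean normalized counts of 407 in WT PCs and 180 in KO PCs, against 2.93 in WT VMs and 5.48 in KO VMs. *Kcnd2* had a lower mean in PCs in both genotypes (167 against 204 in WT and 136 against 240.0 in KO). In a sorted bulk sample, fewer cells of a type and less RNA per cell cannot be told apart.

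The members spanned a wide range of levels. Per kilobase of exon and per 1000000 counts outside the mitochondrial genome, the mean over the 12 libraries was 137 for *B2m*, 19.3 for *F830016B08Rik*, 15.4 for *Ifitm3*, 4.89 for *Bst2* and 3.41 for *Ifitm2*. *Ifit1* followed at 0.691, *Ifit3* at 0.505, *Isg15* at 0.444 and *Irf7* at 0.287 (the *Irf7* annotation counts its introns as exon, which lowers its value). *B2m* thus lay above 98.9% of the 23222 genes with a count, and *F830016B08Rik* and *Ifitm3* above 92.6% and 90.9%, whereas the last 4 lay near or below the middle. *B2m* was the highest member in every library, at 49.3 to 278, and no other member reached its lowest value except *Ifitm3* in 1 KO PC library, at 62.9. The ranges of *F830016B08Rik* (10.2 to 40.8) and *Ifitm3* (0 to 62.9) overlapped, as did those of *Bst2* (0 to 31.8) and *Ifitm2* (0 to 11.7), and those of *Ifit1*, *Ifit3*, *Isg15* and *Irf7*, which all ran from 0 to at most 2.06.

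**Figure D2:**
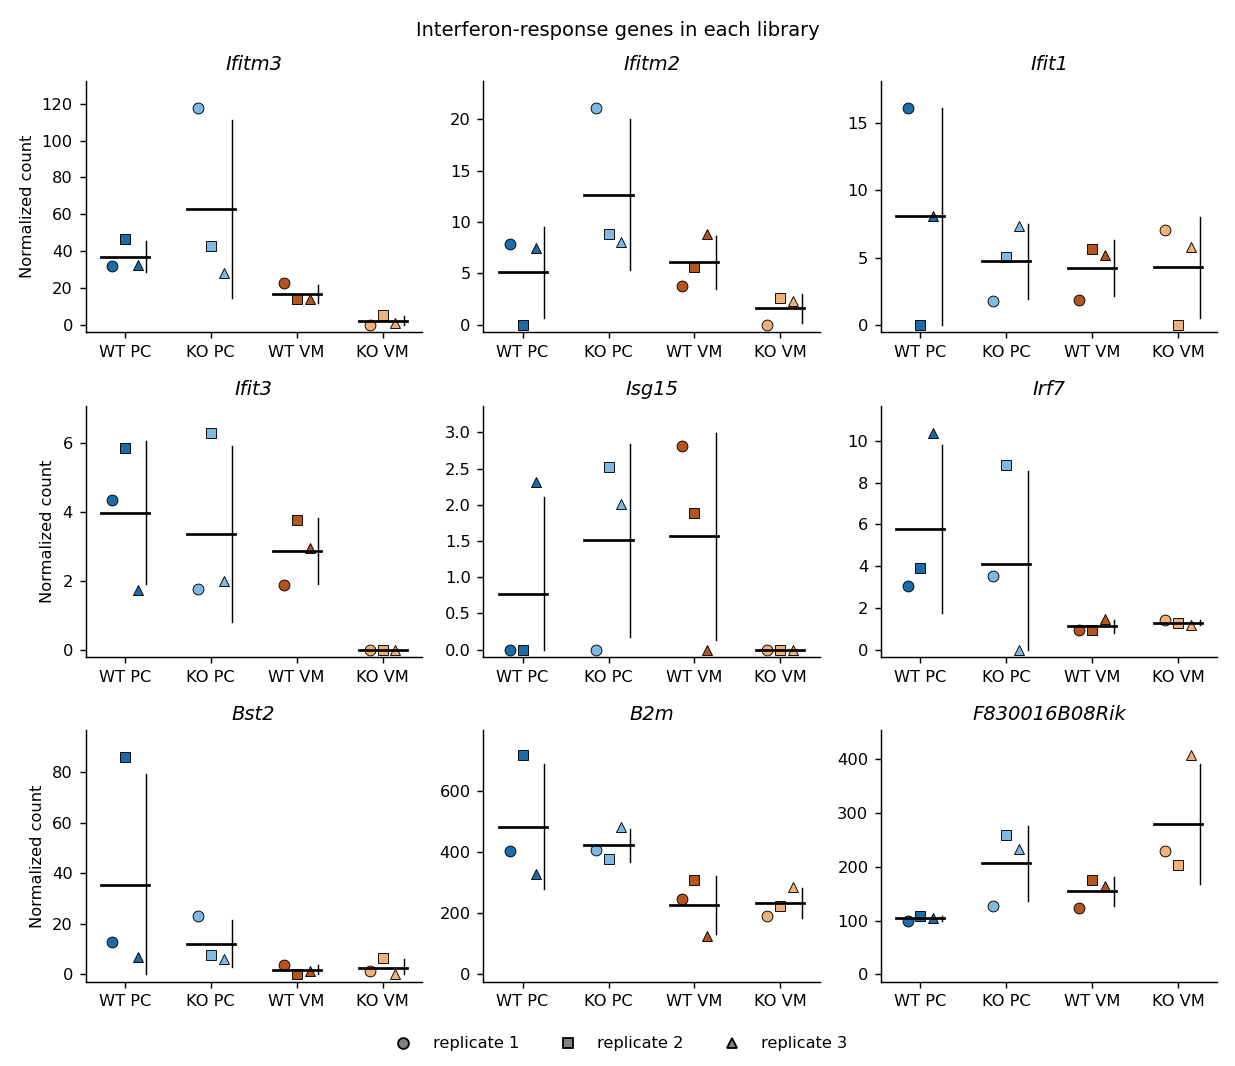
Normalized counts (y axis, linear, a separate scale for each gene) of the 9 members in the 12 libraries, by group, with the symbol giving the replicate number. Thick lines are group means and thin lines ± 1 SD (n = 3), stopped at 0. *Ifitm3*, *B2m* and *Bst2* lie higher in PCs, *Ifitm3* lies lowest in KO VMs, and *F830016B08Rik* lies higher in KO than in WT libraries of each cell type.

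*Ifitm3* and *Ifitm2* encode small membrane proteins that block the fusion of viruses with the cell. *Ifitm3* (chr7:141009586-141010770, 2 exons) had normalized counts of 31.8, 46.8 and 32.4 in WT PCs, 118, 42.9 and 28.1 in KO PCs, 22.5, 14.1 and 14.1 in WT VMs, and 0, 5.14 and 1.16 in KO VMs. The PC libraries lay above the VM libraries within each genotype, and the KO VM libraries, with raw counts of 0, 4 and 1, lay below all others. The log2 fold change was 1.08 ± 0.47 (SE) for WT PC against WT VM and 4.75 ± 0.77 for KO PC against KO VM. Between genotypes, the values that led to its choice were a log2 fold change of -2.92 ± 0.75 for KO VM against WT VM and 0.75 ± 0.57 for KO PC against WT PC. The latter rested on KO PC replicate 1, and was -0.034 without it. As these genotype values used all 12 libraries, no p is given for *Ifitm3* between cell types either.

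*Ifitm2* (chr7:140954837-140955987) shares 48.5% of its 50-base stretches with other genes and pseudogenes, and read pairs that map to several places were not counted. Of its stretches, 36.1% are shared with *Gm45717*, which overlaps 268 of its exonic bases on the same strand and had 0 counts. How pairs in that overlap were counted is not given in the sources used here. The level of *Ifitm2* is therefore uncertain. Its normalized counts were 7.85, 0 and 7.51 in WT PCs, 21.1, 8.84 and 8.02 in KO PCs, 3.75, 5.65 and 8.87 in WT VMs, and 0, 2.57 and 2.32 in KO VMs. The KO PC libraries lay above the KO VM libraries without overlap, with a log2 fold change of 2.76 ± 0.95 and an unadjusted p of 0.0104 in edgeR's quasi-likelihood test (adjusted p = 0.256). WT PCs and WT VMs overlapped, with a log2 fold change of -0.14 ± 0.99 that became 0.29 without WT PC replicate 2. Between genotypes, the KO libraries lay above the WT libraries in PCs, narrowly at the nearest values (8.02 in KO and 7.85 in WT), and below them in VMs, where raw counts were 0 to 2. The log2 fold change of 1.11 ± 1.04 in PCs did not pass (unadjusted p = 0.312 and adjusted p = 0.993 in edgeR's test), and the gene was below the filter in VMs.

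*B2m*, the invariant light chain of MHC class I molecules (chr2:122147686-122153083), was the most abundant member. Its normalized counts were 404, 716 and 329 in WT PCs, 408, 378 and 482 in KO PCs, 247, 310 and 125 in WT VMs, and 190, 222 and 287 in KO VMs. Every PC library lay above every VM library of its genotype, and the KO and WT libraries overlapped in both cell types. In WT, *B2m* was 2.06-fold higher in PCs than in VMs (log2 fold change 1.05 ± 0.39, unadjusted p = 0.0243 and adjusted p = 0.715 by Benjamini-Hochberg in edgeR's quasi-likelihood test). In KO it was 1.81-fold higher in PCs (0.86 ± 0.18, adjusted p = 0.0336 in edgeR's quasi-likelihood test). This adjusted p was 0.548 in 1 edgeR fit of all 12 libraries, and 0.0570 to 0.183 with each of the 6 libraries left out, while the unadjusted p stayed under 0.05 in each. Without WT PC replicate 2 the WT log2 fold change was 0.68 ± 0.28, and without WT VM replicate 3 it was 0.76 and no longer passed (unadjusted p = 0.0840, edgeR's test). Between genotypes, the log2 fold change was -0.18 ± 0.31 in PCs and 0.044 ± 0.25 in VMs.

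*Bst2*, or tetherin, holds budding virus particles at the cell surface (chr8:71534255-71537456). Its normalized counts were 12.6, 85.8 and 6.93 in WT PCs, 22.9, 7.58 and 6.01 in KO PCs, 3.75, 0 and 1.48 in WT VMs, and 1.41, 6.42 and 0 in KO VMs. WT PCs lay above WT VMs without overlap, and KO PCs and KO VMs overlapped at 1 library. The log2 fold change was 4.14 ± 1.25 in WT (unadjusted p = 0.00882 and adjusted p = 0.604 in edgeR's quasi-likelihood test) and 2.10 ± 1.01 in KO (unadjusted p = 0.0539, edgeR). The highest value came from WT PC replicate 2, and without it the WT log2 fold change was 2.44 ± 0.96 (unadjusted p = 0.0249, edgeR). For KO PC against WT PC the log2 fold change of -1.51 ± 1.01 became 0.21 ± 0.85 without that library.

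*Ifit1* and *Ifit3* encode cytosolic proteins with tetratricopeptide repeats that bind viral RNA. *Ifit1* (chr19:34640871-34650009) had normalized counts of 16.1, 0 and 8.09 in WT PCs, 1.76, 5.05 and 7.35 in KO PCs, 1.88, 5.65 and 5.18 in WT VMs, and 7.07, 0 and 5.79 in KO VMs. All 4 groups overlapped, and the log2 fold change for WT PC against WT VM was 1.0 ± 1.06 and did not pass. *Ifit3* (chr19:34583531-34588731) had raw counts of 10, 3 and 3 in WT PCs, 1, 5 and 3 in KO PCs, 2, 4 and 4 in WT VMs, and 0 in all 3 KO VM libraries. Against a floor of 3 counts over the KO VM group, the pooled level was 2.25-fold higher in WT VMs and 2.47-fold higher in KO PCs. These ratios take no account of the spread between libraries. Much of *Ifit3* is shared with its neighbour *Ifit3b* (51.2% of its 50-base stretches), so pairs from the shared stretch may be lost from both.

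*Isg15*, a ubiquitin-like protein that is joined to other proteins, and *Irf7*, a transcription factor that amplifies the type I response, were close to the limit of detection. *Isg15* (chr4:156199424-156200818) had raw counts of 0, 0 and 4 in WT PCs, 0, 2 and 3 in KO PCs, 3, 2 and 0 in WT VMs, and 0 in all KO VM libraries, and no difference was detectable at this depth. *Irf7* (chr7:141262706-141266481) had raw counts of 7, 2 and 18 in WT PCs, 2, 7 and 0 in KO PCs, and 1 or 2 in every VM library. WT PCs lay above WT VMs without overlap, and KO PC replicate 3, at 0, lay below all VM libraries. *Irf7* overlaps 45 exonic bases of *Phrf1* on the opposite strand, and whether counting used strand is not given in the sources used here.

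*F830016B08Rik*, a predicted gene of the interferon-inducible GTPase family, is on chromosome 18. Its normalized counts were 99.4, 109 and 104 in WT PCs, 127, 259 and 234 in KO PCs, 124, 175 and 165 in WT VMs, and 229, 203 and 409 in KO VMs. KO libraries lay above WT libraries of the same cell type without overlap, which is the pattern it was chosen for. The log2 fold change was 1.0 ± 0.34 in PCs and 0.85 ± 0.24 in VMs. Between cell types its direction was opposite to that of *Ifitm3*, *Bst2* and *B2m*, with a log2 fold change of -0.60 ± 0.27 for WT PC against WT VM, whose groups did not overlap, and -0.43 ± 0.27 for KO PC against KO VM, whose groups did.

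**Figure D3:**
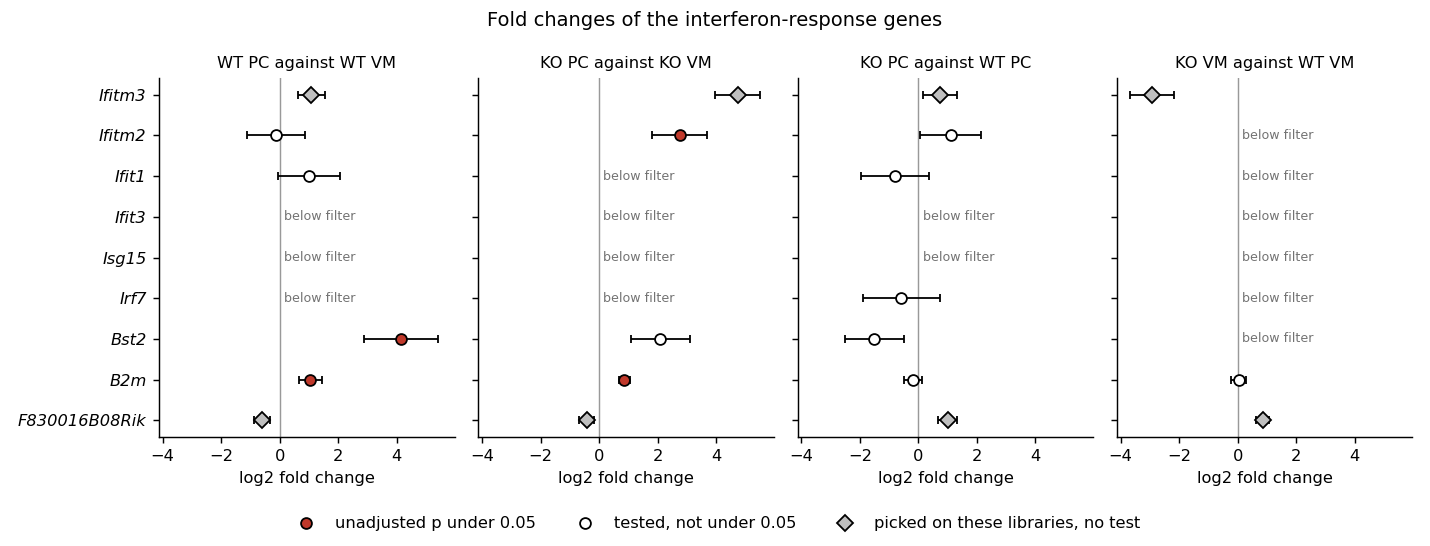
Log2 fold changes (x axis) with their standard errors for the 9 members in the 4 comparisons, 6 libraries each. Red circles passed an unadjusted p of 0.05, open circles did not, and grey diamonds mark the 2 genes picked on these libraries, for which no test is given. Members marked "below filter" had a mean normalized count of 5 or less. *Ifitm3* and *B2m* lie to the right of 0 in both cell type comparisons.

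Counts of tests are given over the 7 members that were not picked. In WT PC against WT VM, 4 of the 7 passed the filter of a mean normalized count above 5. Of these, *Bst2* and *B2m* had an unadjusted p under 0.05 and did not overlap between groups, both higher in PCs. Among all 11822 genes tested, 6.36% passed, 5.14% with a higher level in PCs, 13.9% did not overlap, and 0.11% passed after adjustment, none of the 7 among them. Without WT VM replicate 3, *Bst2* alone of the 7 passed, beside 316 of all 11837 genes tested. In KO PC against KO VM, 3 of the 7 passed the filter, and *Ifitm2* and *B2m* had an unadjusted p under 0.05 and did not overlap, again both higher in PCs. Beside this, 9.7% of all genes tested passed, 7.11% in that direction, and 15.6% did not overlap. *B2m* alone of the 7 passed after adjustment, beside 0.872% of all genes. The median log2 fold change was 1.02 over the 4 members in WT and 2.10, the value of *Bst2*, over the 3 in KO. Several members were above the filter only through their PC libraries. These were *Bst2* (VM means 1.74 in WT and 2.61 in KO), *Ifit1* in WT (4.23) and *Ifitm2* in KO (1.63). The filter thus favoured members high in PCs, and the medians are not set against those over all genes.

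Between genotypes, none of the 7 members that were not picked passed. In KO PC against WT PC, 5 of the 7 were tested and 0 passed in edgeR's quasi-likelihood test, also at the unadjusted threshold, where 3.22% of all genes passed, 9.52% did not overlap and 0.0% passed after adjustment. Of the 5, only *Ifitm2* did not overlap. In KO VM against WT VM only *B2m* of the 7 was above the filter, and it did not pass, beside 5.12% of all genes tested, with 9.63% not overlapping and 0.0373% passing after adjustment. Whether the genotype effect differed between PCs and VMs was tested for 4 of the 7 and passed for 0, beside 2.9% of all genes, and 0.0% after adjustment. *Ifitm2* came nearest, with a difference of 2.89 ± 1.37 on the log2 scale and an unadjusted p of 0.0521 (edgeR). By DESeq2's test *Ifitm2* passed, with a p of 0.0374. For the 2 picked genes the same difference was 3.68 ± 1.0 in *Ifitm3* and 0.14 ± 0.42 in *F830016B08Rik*, without a test.

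As a single value for each gene, the difference of mean log2(normalized count + 2) between PCs and VMs was averaged over both genotypes and set against all 400 relabellings of cell type within genotype, of which the smallest possible p is 0.005. In this exact permutation test (two-sided), *B2m* was higher in PCs by 0.98 (p = 0.005) in 6 of 6 PC libraries against the mean of their VM group. *Bst2* was higher by 2.20 in the exact test (p = 0.010), also in 6 of 6. Both kept a p under 0.05 with each library left out in turn. *Ifit3*, higher by 0.79 (exact p = 0.025), and *Irf7*, higher by 0.90 (exact p = 0.045), passed, with 5 of 6 libraries in that direction, but rested on few counts. Each had an exact p of 0.05 without WT PC replicate 2, and the highest exact p with 1 library left out was 0.055 for *Ifit3* and 0.165 for *Irf7*. *Ifitm2*, *Ifit1* and *Isg15* did not pass, with exact p of 0.255, 0.655 and 0.670. The difference in *Ifitm3* was 2.5 and in *F830016B08Rik* -0.49, given without a p. Across genotypes, the same test passed for 0 of the 7 members, and its lowest exact p was 0.065, for *Ifit3*, which was lower in KO by 0.73. The exact tests were made for the members only, so no share over all genes can be set beside these counts.

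The levels of the other genes of the pathway were read from lists by role. Of 21 interferon genes, all were at or under 3 counts in every library, with 2 counts in total over the 12 libraries. All 9 receptor and kinase genes were tested and 0 passed in any of the 5 comparisons. *Ifngr2*, a chain of the interferon gamma receptor, had mean normalized counts of 555 to 738 over the 4 groups, *Jak1* 669 to 786, and *Ifnar1* 50.1 to 71.0. The transducers *Stat2* (17.3 to 34.7) and *Irf9* (14.8 to 18.4) were above 3 counts in every library. Of the 12 transducers and regulatory factors, 5 to 8 were above the filter and tested, depending on the comparison, and 0 passed in any. Among genes that are common readouts of a type I response, *Mx1* and *Oas1a* had at most 4 and 1 counts in any library, *Oasl2*, *Oas2* and *Mx2* at most 37, 39 and 42, and *Rsad2* at most 53. The genes named in these sentences were chosen after their values were seen.

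In WT PC against WT VM, 98 of 168 other pathway genes were tested and 11 passed at the unadjusted threshold, 10 of them higher in PCs, and 0 after adjustment in edgeR's quasi-likelihood test. These were 11.2% and 10.2% of the pathway genes tested, beside 6.36% and 5.14% of all genes tested. The median log2 fold change over the 98 was 0.22. By list, those that passed with a higher level were 3 of 31 antiviral effectors, 3 of 14 interferon-inducible GTPases and 3 of 14 MHC class I presentation genes. For nucleic acid sensors and adaptors this was 0 of 10, and for inhibitors of the pathway 0 of 4. By direction alone, 19, 9, 7, 7 and 3 genes of these lists, in the same order, were higher in PCs. The genes that passed included the MHC class I heavy chains *H2-D1* (1.75 ± 0.55), *H2-K1* (0.78 ± 0.32) and *H2-T23* (3.77 ± 1.37), the GTPases *Gvin1* (2.36 ± 0.98) and *Gbp7* (2.01 ± 0.85), and the effectors *Ifi35* (2.21 ± 0.73), *Ifi27l2a* (2.5 ± 0.97) and *Ddx60* (2.76 ± 1.12). The *Ifit3* paralogue *Ifit3b* (4.52 ± 1.62) was higher in PCs, and *Trim25*, a ligase for ISG15 and an activator of RIG-I, was lower (-1.09 ± 0.48). Several of these rested on WT PC replicate 2: *Ddx60* had 12.6, 281 and 14.4 normalized counts in the WT PC libraries, *Gbp7* 24.4, 285 and 35.8, *H2-T23* 5.67, 140 and 10.4, and *Ifi47*, a GTPase that also passed and had 0 counts in all WT VM libraries, 0, 58.5 and 8.09. Without that library 10 pathway genes passed, while the count over all genes rose to 1264 of 12139 tested, from 752 of 11822 with it. Only 4 of the 10 were the same (*H2-D1*, *H2-K1*, *Ifi35* and *Trim25*). The log2 fold change of *Ddx60* was then -0.06 and that of *Gbp7* 0.16. With all libraries, several genes that passed were above the filter only through WT PCs. These were *Ifi47* (WT VM mean 0), *Ifit3b* (0.31), *Gvin1* (1.81), *Ifi27l2a* (2.93) and *H2-T23* (3.35). The same filter applied to all genes tested, and the shares and medians are given as a description.

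In KO PC against KO VM, which does not use that library, 84 pathway genes were tested and 10 passed, 9 higher in PCs, and 0 after adjustment in edgeR's test. These were 11.9% and 10.7% of the pathway genes tested, beside 9.7% and 7.11% of all genes tested. The median log2 fold change was 0.21. By list, 3 of 27 antiviral effectors, 3 of 10 GTPases and 2 of 15 MHC class I presentation genes passed with a higher level. So did 1 of 9 sensors and adaptors and 0 of 4 inhibitors. By direction alone, 23, 7, 10, 6 and 3 genes of these lists, in the same order, were higher in PCs. The genes were the GTPases *Gbp9* (2.74 ± 0.64, adjusted p = 0.0588 in edgeR's test), *Gbp7* (1.67 ± 0.63) and *Gbp2* (2.61 ± 1.05), the effectors *Sp100* (1.99 ± 0.58), *Rsad2* or viperin (2.17 ± 0.64) and *Slfn5* (1.18 ± 0.35), the RNA sensor RIG-I gene *Ddx58* (1.47 ± 0.46), and the MHC class I genes *H2-D1* (1.43 ± 0.48) and *H2-T24* (1.10 ± 0.48). *Iigp1*, a GTPase of the same family as *F830016B08Rik*, was lower in PCs (-0.79 ± 0.23). *H2-D1* had normalized counts of 60.6, 170 and 63.0 in WT PCs, 123, 42.9 and 66.2 in KO PCs, 41.3, 27.3 and 14.8 in WT VMs, and 8.49, 28.2 and 46.3 in KO VMs. It passed in both genotypes, while KO PCs and KO VMs overlapped. *Gbp2* (KO VM mean 1.54) was above the filter only through KO PCs, and the shares and median are again a description. MHC class I and GTPase genes are families of close copies, so their counts are uncertain where read pairs map to several places.

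Between genotypes, 3 of 103 pathway genes tested passed in PCs and 8 of 76 in VMs, 0 of them after adjustment in either by edgeR's quasi-likelihood test. The 2.91% in PCs was close to the 3.22% of all genes, and the 10.5% in VMs stood beside 5.12% of all genes. In PCs these were *H2-Q4* (2.51 ± 1.03, higher in KO), *H2-T23* (-4.06 ± 1.37) and *Ddx60* (-2.83 ± 1.15). Without WT PC replicate 2, 4 passed, beside 462 of all 12037 genes tested, and only *H2-Q4* was among the first 3. In VMs, 6 were higher in KO: the adaptor *Ticam1* (1.52 ± 0.40), the RNA editing enzyme *Adar* (1.33 ± 0.54), *Ifi35* (1.26 ± 0.59), the GTPases *Igtp* (0.79 ± 0.34) and *Iigp1* (0.48 ± 0.22), and the chaperone *Calr* (0.40 ± 0.17). Lower in KO were *H2-T24* (-1.08 ± 0.39) and *Eif2ak2*, the kinase PKR (-0.50 ± 0.23). *Iigp1* had normalized counts of 144, 179 and 248 in WT VMs and 216, 240 and 346 in KO VMs, and these groups overlapped. That contrast of the genotype effects passed for 5 of 91 genes, *Ifi35* (-2.49 ± 0.94), *Trim25* (1.49 ± 0.58), *Eif2ak2* (1.06 ± 0.41), *Ddx58* (1.94 ± 0.76) and *Gbp5* (3.60 ± 1.45), and for 0 after adjustment (edgeR). These were 5.49% of the pathway genes tested, beside 2.9% of all genes. The same 5 passed without WT PC replicate 2, among 9, beside 400 of all 11375 genes tested.

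**Figure D4:**
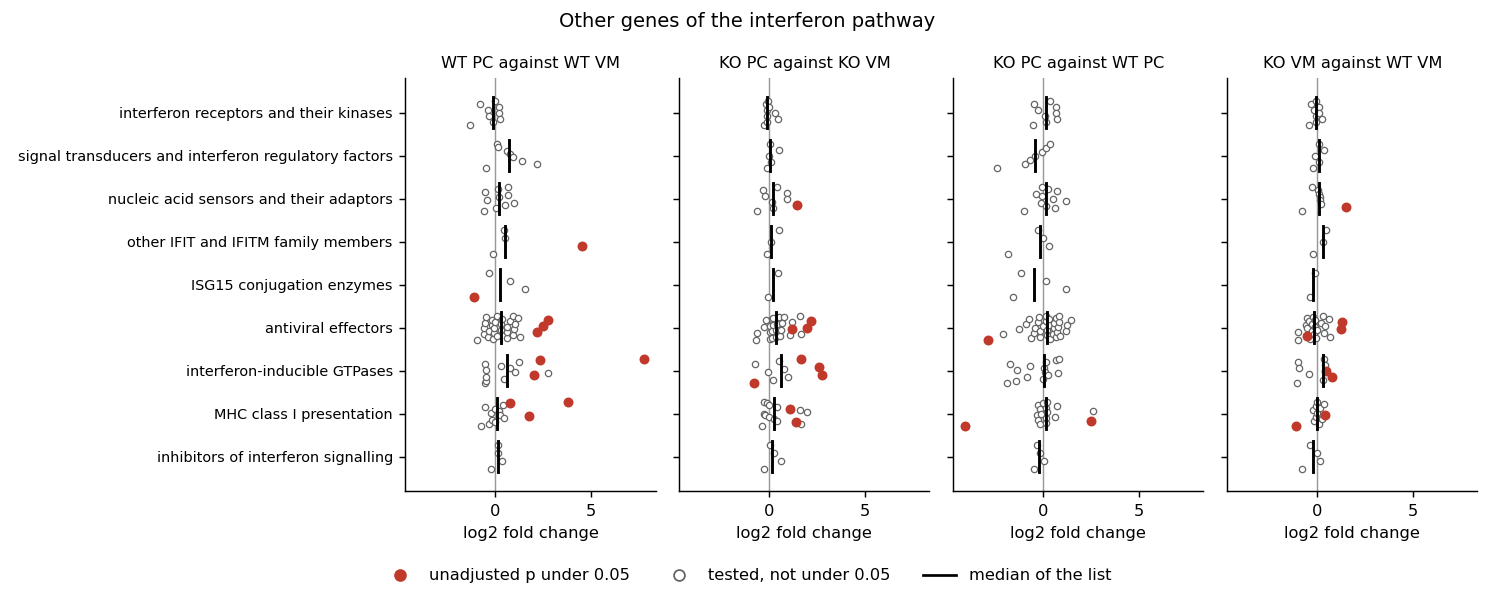
Log2 fold changes (x axis) of the other interferon pathway genes above the filter, by list, in the 4 comparisons. Red points passed an unadjusted p of 0.05, open points did not, and vertical lines are list medians. Interferon genes are not drawn, as none was above the filter. Red points lie mostly to the right of 0 in the 2 cell type comparisons, and some of these genes were above the filter only through PCs.

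Summed markers of non-myocyte cells were also higher in PCs than in VMs, as *Ifitm3*, *Bst2* and *B2m* were. Of 12 endothelial markers, 12 had a higher mean in PCs than in VMs in WT and 12 in KO, and their summed normalized count was 1369 to 1949 in WT PCs, 960 to 3129 in KO PCs, 456 to 916 in WT VMs and 154 to 589 in KO VMs. Of 8 smooth muscle and pericyte markers, 7 were higher in WT PCs and 8 in KO PCs, with sums of 1137 to 1410, 1004 to 2477, 486 to 978 and 253 to 692 in the same order of groups. Of 10 fibroblast markers, 9 and 10 were higher, with sums of 1003 to 2325, 814 to 1343, 297 to 535 and 94.8 to 433. Of 12 macrophage markers, 11 and 12 were higher, with sums of 389 to 997, 326 to 393, 91.7 to 201 and 12.7 to 116, and *Fcgr1* was at or under 3 counts in every library. Of 10 lymphocyte markers, 4 had a higher mean in WT PCs than in WT VMs and 3 in KO PCs than in KO VMs. In every library 7 were at or under 3 counts, among them the T cell markers *Cd3e*, *Cd3g* and *Cd8a*. The lymphocyte sums were 27.2 to 211, 15.2 to 28.1, 4.44 to 9.38 and 2.57 to 11.6. The part of these cells in the PC and VM levels of *Ifitm3*, *Bst2* and *B2m* was not tested.

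Over the 12 libraries, log2 *Ifitm3* correlated with the log2 sum of smooth muscle and pericyte markers at r = 0.95, of endothelial markers at 0.92, and of fibroblast and macrophage markers at 0.86 each. With group means removed, so that only differences among replicates remain, the values were 0.89, 0.90, 0.75 and 0.61. KO PC replicate 1, the highest *Ifitm3* library, also had the highest endothelial and pericyte sums, and KO VM replicate 1, with 0 *Ifitm3* counts, had the lowest. *Bst2* correlated with the same 4 sums at 0.72, 0.76, 0.82 and 0.75, and with group means removed at 0.56, 0.54, 0.57 and 0.44. *B2m* correlated with them at 0.53, 0.68, 0.80 and 0.78, and with group means removed at -0.14, 0.22, 0.48 and 0.55. Its highest correlation was with the sum of lymphocyte markers, at 0.87 and, with group means removed, 0.75, against 0.79 and 0.44 for *Bst2*. WT PC replicate 2 had both the highest lymphocyte sum (211) and the highest *B2m* (716). In that list, *Ms4a1* had 92 of its 101 counts in 1 WT PC library and was at or under 3 counts in 10 of 12 libraries. The sum of Purkinje markers gave 0.69 for *B2m* and 0.65 for *Bst2*, and with group means removed 0.17 and -0.07. *F830016B08Rik* was at -0.56, -0.53, -0.52 and -0.51 with the same 4 sums, and with group means removed at -0.52, -0.32, -0.063 and 0.11. These are descriptions over 12 libraries that share groups, depth and sorts.

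**Figure D5:**
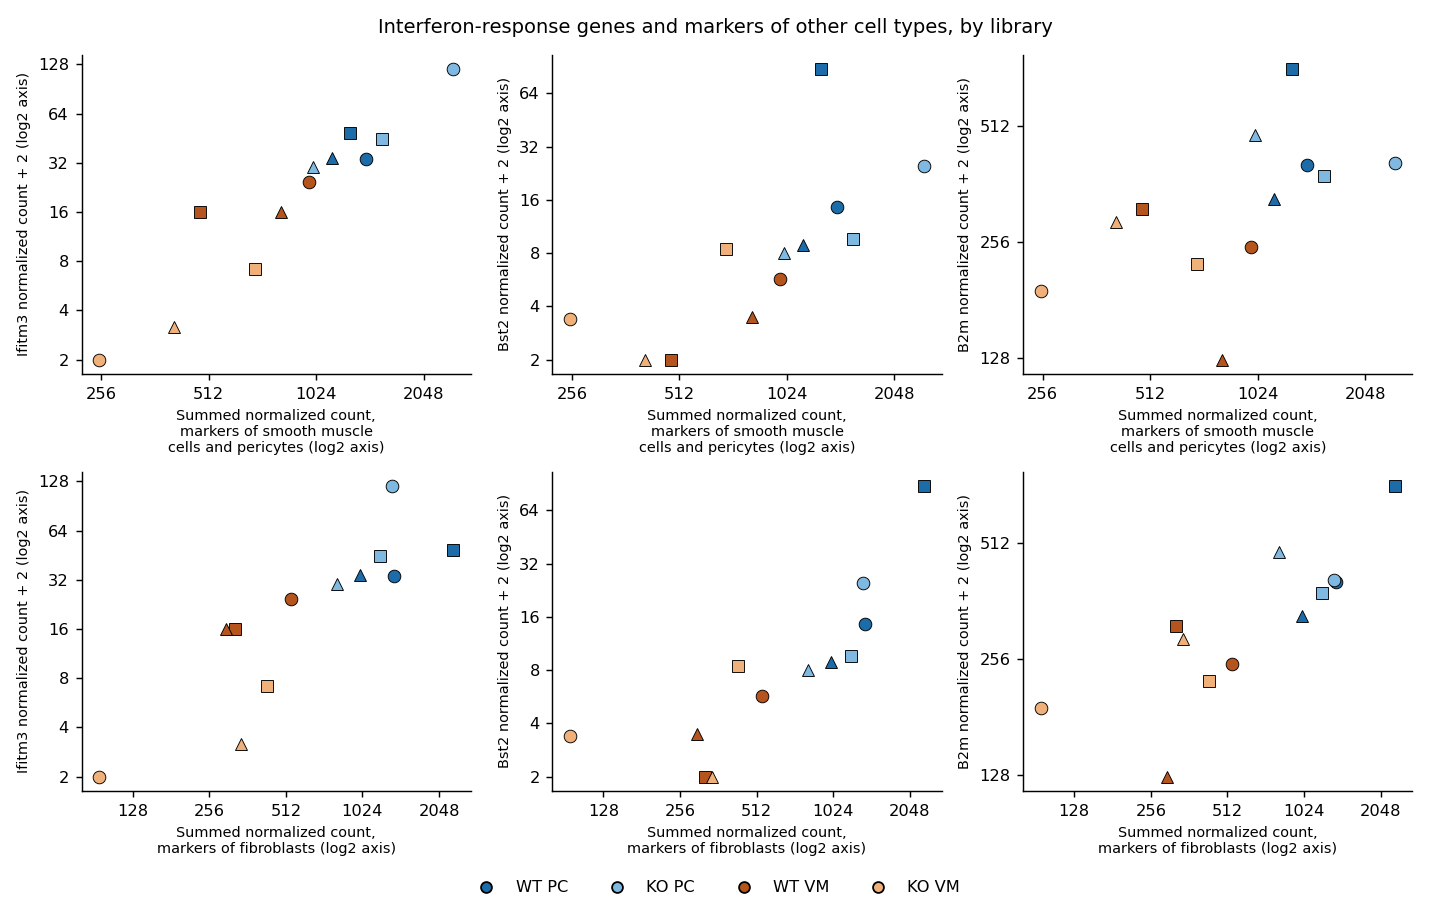
Normalized counts of *Ifitm3*, *Bst2* and *B2m* (y axis, log2 scale, 2 added) against the summed normalized count of markers of smooth muscle cells and pericytes (upper row) or of fibroblasts (lower row) on a log2 x axis, 1 point per library, coloured by group, with circles, squares and triangles for replicates 1, 2 and 3. The correlations are 0.95, 0.72 and 0.53 in the upper row and 0.86, 0.82 and 0.80 in the lower row, and KO VM libraries lie at the lower left for *Ifitm3*.

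Among 8100 genes with a mean normalized count above 20, the genes with the pattern most like *Ifitm3* were *Pdgfrb* (r = 0.98), a pericyte receptor, *Dpt* (0.96), a fibroblast matrix protein, and *Rnase4* (0.96). *Bst2* was most like *Apoe* (0.95), *Slco2b1* (0.94) and *Ano6* (0.93), and *B2m* most like *Errfi1* (0.91), *Gpx3* (0.88) and *Col4a4* (0.88). The closest to *Ifitm2* was *Wasf2* (0.94), to *Ifit1* *Ppil2* (0.91), to *Ifit3* *Pcif1* (0.87), to *Isg15* *Gm37890* (0.87), to *Irf7* *Prkd3* (0.79) and to *F830016B08Rik* *Efnb3* (0.88). Among the members themselves, *Ifitm3* and *Ifit3* (0.72), *Bst2* and *B2m* (0.71), *Ifitm3* and *Bst2* (0.68) and *Ifitm3* and *Ifitm2* (0.63) had the highest correlations over the 12 libraries, and *Ifitm3* and *F830016B08Rik* the lowest (-0.63). With group means removed, *Ifitm3* and *Bst2* were at 0.69 and the other 3 pairs at -0.14, 0.29 and 0.26.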

How the data were processed

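RNA was taken from TMRM-stained cardiomyocytes sorted by EGFP, and amplified with a low-input kit. Paired 50-base reads were aligned by the authors with STAR 2.5.0c to mm10, and the deposited values are unnormalized HTSeq 0.6.0 counts, 1 per aligned pair that fell on a gene. Whether counting used strand is not given in the sources used here. The 468 identifiers without a gene name held 0.00659% of counts.

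Groups were taken from the sample labels. Counts were scaled by the trimmed mean of M values in edgeR 4.0.16 (R 4.3.3), only genes averaging more than 5 normalized counts in the libraries compared were kept, and edgeR's quasi-likelihood test was fitted over all of them, with 6 libraries in each comparison of groups and 12 for the contrast of genotype effects. A gene passed at an unadjusted p under 0.05, the study's threshold, and p-values were also adjusted by Benjamini-Hochberg over all genes tested. Single genes were tested by exact permutation on log2(normalized count + 2). Library labels do not say that replicates came from separate animals, so p-values measure the spread between these libraries, which may be technical. Levels per length used the GENCODE annotation on GRCm38, and promoters came from RefSeq.

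Alternatives were DESeq2 1.42.0, its size factors in edgeR, no filter, filterByExpr, 1 fit of all 12 libraries, a replicate block, a pseudocount of 0.5 and each library left out. Genes named were the 9 members, pathway genes that passed (up to 12 a comparison), and the 3 genes most correlated with each member. The members and lists were chosen with earlier results of these data known. The code was tested on simulated data. Values of some listed genes are not reported here.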

Additional observations from a re-analysis of the deposited data

Results flagged for a closer look

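In *Ifitm2* the order of the KO and WT libraries was opposite in the 2 cell types, and edgeR's test on all libraries did not pass. DESeq2's test passed, as did edgeR's in 2 of the 12 fits with a library left out. All 3 KO PC libraries lay above all 3 WT PC libraries, and all 3 KO VM libraries lay below all 3 WT VM libraries. The difference between these effects was 2.89 ± 1.37 on the log2 scale, with an unadjusted p of 0.0521 and an adjusted p of 0.999 in edgeR's quasi-likelihood test. It was 2.46 ± 1.20 without WT PC replicate 2, whose *Ifitm2* count was 0. Counts were 0 to 18 in every library, and 48.5% of the gene's 50-base stretches occur in other genes.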

How the results depend on the processing

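Counts of genes that passed, and the exact tests, were recomputed under each alternative, and 129 of 158 such values stayed within 1.5 times the main one. Pathway genes that passed in WT PC against WT VM went from 11 to 7 with filterByExpr and to 6 with the replicate block. Over all genes, 752 of 11822 passed in the main fit, 591 of 10303 with filterByExpr and 620 of 11822 with the replicate block. Without the filter, 19 pathway genes passed in KO PC against KO VM (10 with it), beside 1596 of all 20228 genes tested. In KO PC against WT PC 9 pathway genes passed (3 with it), beside 1126 of 21610. In KO VM against WT VM 1 of the 7 members not picked and 15 pathway genes passed (0 and 8 with it), beside 972 of 20626. The contrast of genotype effects then passed for 14 pathway genes (5 with it), beside 1003 of 23366. One fit of all 12 libraries gave 6 pathway genes in KO PC against WT PC and 2 in KO VM against WT VM, beside 963 and 153 of all 11323 genes tested. DESeq2 gave 1 member, *Ifitm2*, in the contrast of genotype effects, beside 438 of all 11323 genes tested. With a pseudocount of 0.5 the KO minus WT difference of *Ifitm2* was -0.024 in place of 0.024.

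With each library left out in turn, 2 to 4 of the 7 members not picked passed the exact PC against VM test, the 2 without any 1 of the KO VM libraries, and 0 to 1 passed between genotypes. The exact tests have no share over all genes beside them. In edgeR's test the members not picked that passed numbered 1 to 2 in WT PC against WT VM and 1 to 3 in KO PC against KO VM. In the contrast of genotype effects they numbered 0 to 1. Over all genes tested the numbers were 316 to 1264, 784 to 1172 and 197 to 841 in the same order. The planned counts over all 9, which include the picked *Ifitm3* and *F830016B08Rik* and are no support, were 3 to 5 in the exact test and 1 to 4 in WT PC against WT VM. Pathway genes numbered 1 to 13 in WT PC against WT VM, the lowest without WT VM replicate 3, and 1 to 9 in KO PC against WT PC. In KO VM against WT VM they numbered 4 to 9, and in the contrast 2 to 9. Over all genes tested the numbers also moved, in the same order 316 to 1264, 169 to 879, 437 to 712 and 197 to 841. The 316 was likewise without WT VM replicate 3. Differences that changed sign were, for PC minus VM, *Ifit1* (-0.080 to 0.72) and *Isg15* (-0.0080 to 0.36), and for KO minus WT, *Ifitm2* (-0.36 to 0.22), *Ifit1* (-0.65 to 0.15), *Irf7* (-0.52 to 0.093), *Bst2* (-0.68 to 0.15) and *B2m* (-0.19 to 0.16). Log2 fold changes that changed sign were *Ifitm2* in WT PC against WT VM (-0.44 to 0.29), and in KO PC against WT PC *Ifitm3* (-0.034 to 1.08), *Irf7* (-0.79 to 0.066), *Bst2* (-2.27 to 0.21) and *B2m* (-0.39 to 0.20). The same held for *B2m* in KO VM against WT VM (-0.25 to 0.35) and, in the contrast, for *F830016B08Rik* (-0.049 to 0.52) and *B2m* (-0.51 to 0.16). The causes were not tested.

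Same-numbered PC and VM libraries deviated together weakly, with correlations over 8100 genes that ran from 0.0813 to 0.207 for WT and from -0.00956 to 0.121 for KO, so the numbers were not taken as pairs. With the replicate block, *Bst2* also passed in KO PC against KO VM, with a log2 fold change of 2.25. *Ifit1*, *Ifit3*, *Isg15* and *Irf7*, at 37 counts or fewer in any library, are limited by depth.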
